A study of Homo sapiens with 9 samples.

Results

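The 10 genes described here belong to the BCL2 family, which controls whether a cell dies by the mitochondrial route of apoptosis. They are BCL2, BCL2L1, MCL1, BAX, BAK1, BCL2L11, PMAIP1, BBC3, BID and BAD. They were taken by their symbols, and all 10 were found among the 25084 genes of the table. Each passed the filter used for testing, a level of 1 CPM (the reads of a gene scaled to a common library total) or more in 3 or more of the 9 libraries.

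The family works through binding between its members. The anti-apoptotic proteins BCL2, BCL-XL (from BCL2L1) and MCL1 sit on the outer mitochondrial membrane and hold the effectors BAX and BAK in check. Freed effectors make pores in that membrane, cytochrome c leaves, and the caspases are switched on. The BH3-only proteins BIM (from BCL2L11), NOXA (from PMAIP1), PUMA (from BBC3), BID and BAD carry stress signals to this step by binding the anti-apoptotic proteins or the effectors. In neuroblastoma the family is known for high BCL2 in many tumours and for its use as a drug target, and MYC proteins are known both to drive growth and to make cells prone to apoptosis.

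The cells were LAN5, an established human neuroblastoma line with MYCN amplification. Small interfering RNAs, which direct the breakdown of a matching transcript, were brought in by electroporation with a Nucleofector. The siRNA was a control (siCTR), or aimed at MYCN (siMYCN, labelled siMYCN_2) or at HAND2 (siHAND2, labelled siHAND2_3), and the cells were kept in growth medium with serum for 72 h before RNA extraction. Each group held 3 libraries, and nothing in the labels states whether these came from separate transfections, so p-values measure the spread between these libraries, which may be technical. Each knockdown group is labelled with 1 siRNA of its target, so effects of that siRNA on other transcripts cannot be told apart from those of the knockdown.

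The reads assigned to genes, read from the step between the lowest CPM values, numbered 21.1 M to 32.7 M per library. On the log2(CPM + 1) scale MYCN fell by 0.51 in siMYCN (limma, adjusted p = 7.15e-07), and by 0.34 with quantile normalization. It fell by 1.01 in siHAND2 (adjusted p = 1.72e-10). HAND2 fell by 0.88 in siHAND2 (adjusted p = 1.25e-10) and rose by 0.19 in siMYCN (adjusted p = 0.00183). The siHAND2 group was therefore also a group with lowered MYCN. All 12 genes of a sympathetic neuroblast and neuroendocrine marker list were above 1 CPM in every group, and no immune, endothelial or Schwann cell marker reached a group mean of 1 CPM. In several members siHAND2 replicate 3 lay away from siHAND2 replicates 1 and 2, so values without it are given where a call turns on it.

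Levels of different genes can be compared only per length, for which CPM was divided by the length of the canonical transcript in kilobases. On this scale the siCTR order was BAX (48.7 to 51.9 CPM per kb), then, by their means, MCL1 (43.8), BCL2 (42.4), PMAIP1 (39.5), BID (20.7), BAD (17.8), BCL2L1 (10.5), BBC3 (5.49), BCL2L11 (4.46) and BAK1 (3.59). The ranges of neighbours in this order were separate except for MCL1 and BCL2. In siMYCN BCL2 stood at the top (56.5 ± 2.52 CPM per kb, SD, n = 3), above MCL1 and BAX, whose ranges overlapped. In siHAND2 BCL2 was again at the top (56.9 ± 1.43 CPM per kb), again with overlapping ranges of BAX and MCL1 below it. The lower 4 places were the same genes in the same order in the 3 groups. These orders depend on the transcript taken for the length, and the table does not separate isoforms such as the long and short forms of BCL2L1 and MCL1, which have opposite functions.

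**Figure D1:**
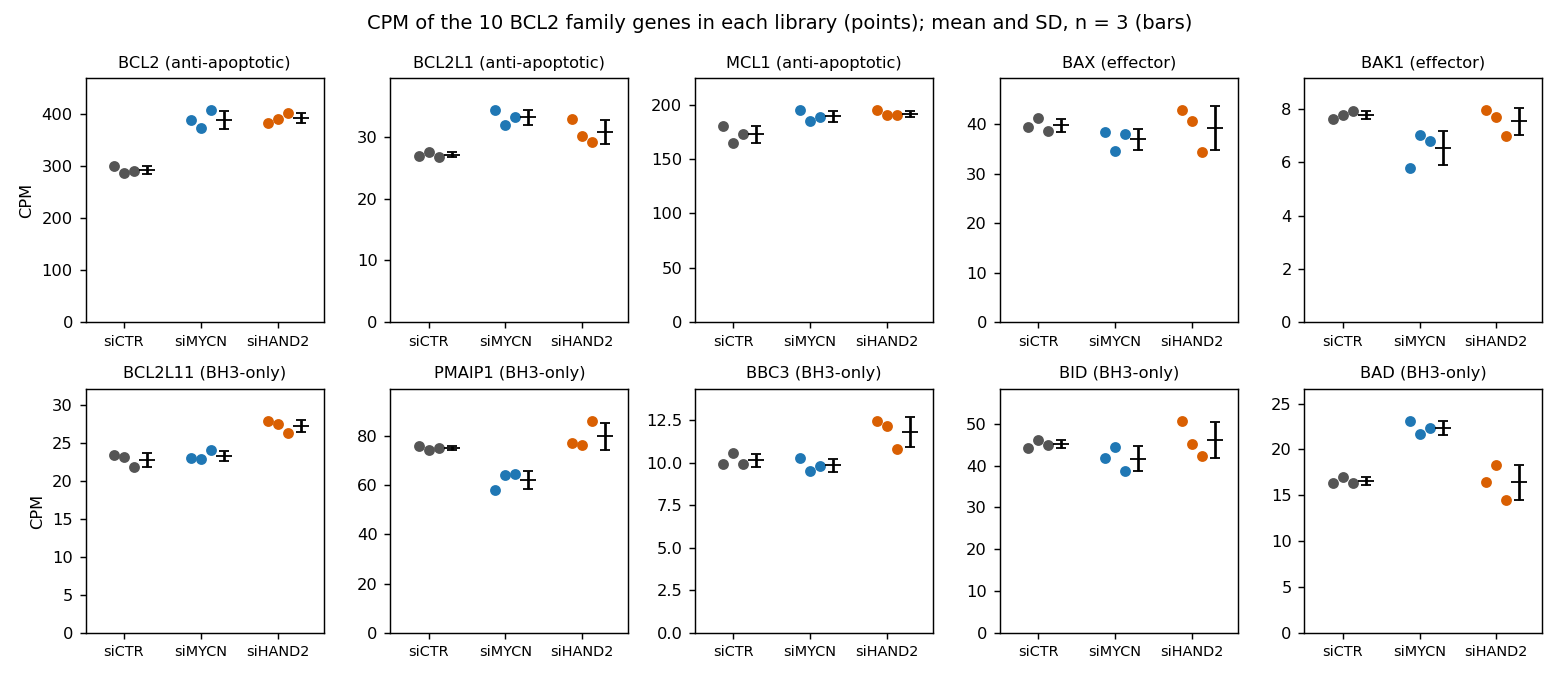
CPM (y axis, from 0) of each of the 10 genes in the 9 libraries, grouped by siRNA (x axis), with the mean and SD of 3 libraries beside the points. The BCL2, BCL2L1 and MCL1 points of both knockdown groups lie above all siCTR points, the BAD points of siMYCN lie above the other 6, and the PMAIP1 points of siMYCN lie below the other 6.

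The 3 anti-apoptotic members were higher in both knockdown groups than in siCTR. BCL2 (chromosome 18, 63123346 to 63320128, GRCh38), the founding member of the family, stood at 299, 286 and 290.2 CPM under siCTR, at 387, 372 and 407 under siMYCN and at 383, 389 and 402 under siHAND2, given here and for all genes in the order of replicates 1, 2 and 3. Every knockdown library exceeded every siCTR library, and the knockdown groups overlapped each other. BCL2 rose by 0.41 in siMYCN (difference of log2(CPM + 1), standard error 0.04, limma, adjusted p = 1.96e-06) and by 0.42 in siHAND2 (standard error 0.04, adjusted p = 1.16e-06). The siHAND2 libraries differed from the siMYCN libraries by 0.01, with a 95% interval of -0.08 to 0.10 (adjusted p = 0.881). In bulk RNA, more cells expressing a gene and more RNA per cell cannot be told apart. Both contrasts against siCTR share the same control libraries, so their values stand side by side and are not independent.

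BCL2L1 (chromosome 20, 31664452 to 31723989), which encodes BCL-XL, stood at 27.0, 27.6 and 26.8 CPM under siCTR, at 34.3, 32.0 and 33.2 under siMYCN and at 32.9, 30.2 and 29.2 under siHAND2. All 6 knockdown libraries lay above the siCTR libraries. BCL2L1 rose by 0.28 in siMYCN (standard error 0.06, limma, adjusted p = 0.00117). The rise of 0.17 in siHAND2 (adjusted p = 0.0304) was near the threshold. It was lost with median-ratio rescaling (0.13), in which each library is divided by the median of its gene-wise ratios to the geometric mean over libraries, with quantile normalization (0.15), without siCTR replicate 1 (0.17), 2 (0.19) or 3 (0.16) and without siHAND2 replicate 1 (0.13) or 2 (0.18). The knockdown groups differed by -0.11 (95% interval -0.23 to 0.01, adjusted p = 0.181). The antisense gene ABALON overlaps BCL2L1 on the other strand by 1903 bases. Use of strand in counting is not given in the sources used here, and ABALON averaged 2.39 ± 0.48 CPM under siCTR, 2.71 ± 0.39 under siMYCN and 2.14 ± 0.30 under siHAND2 (SD, n = 3).

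MCL1 (chromosome 1, 150574551 to 150579738), a short-lived protein that guards against BAK activation, stood at 181, 165 and 173 CPM under siCTR, at 195, 184 and 189 under siMYCN and at 195, 190.0 and 190.1 under siHAND2. Its knockdown libraries also lay above all siCTR libraries, by a smaller margin. It rose by 0.13 in siMYCN (limma, adjusted p = 0.0239) and by 0.15 in siHAND2 (adjusted p = 0.0145). The siMYCN call was lost with median-ratio rescaling (0.07), quantile normalization (0.07) or no intensity trend (a variance prior that does not depend on the level), and without siCTR replicate 2 (0.10) or 3 (0.13) or siMYCN replicate 1 (0.11) or 3 (0.13). The siHAND2 call was lost with median-ratio rescaling (0.11), with no intensity trend and without siCTR replicate 2 (0.12). The median over all genes tested was 0.06 in siMYCN and 0.04 in siHAND2. The knockdown groups differed by 0.02 (95% interval -0.07 to 0.11).

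Neither effector passed the limma test in any of the 3 contrasts. The shares of all genes called were 35.9% in siMYCN, 29.9% in siHAND2 and 26.9% between the knockdowns. At an unadjusted p under 0.05, 1 effector passed in siMYCN, 0 in siHAND2 and 1 between the knockdowns. No share of all genes was computed at that threshold. BAX (chromosome 19, 48954815 to 48961798), which moves from the cytosol to mitochondria when activated, stood at 39.3, 41.3 and 38.7 CPM under siCTR, at 38.4, 34.5 and 38.0 under siMYCN and at 42.8, 40.5 and 34.3 under siHAND2. The siMYCN libraries lay below the siCTR libraries by a narrow gap, and the siHAND2 libraries spanned them. The differences were -0.10 in siMYCN (95% interval -0.25 to 0.05, limma, adjusted p = 0.271) and -0.03 in siHAND2 (95% interval -0.18 to 0.13, adjusted p = 0.821). Without siHAND2 replicate 3, the lowest library of all, the siHAND2 difference was 0.07, and BAX passed the test between siHAND2 and siMYCN (0.17, adjusted p = 0.0399) in place of 0.08.

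The promoter of BAX held the letters CACGTG, the E-box core that MYC proteins are known to bind, more often than that of any other member with a sequence. Promoter windows of 300 bases (250 before and 50 after the annotated start, RefSeq, GRCh38.p14) were found for 9 of the 10 members (BCL2, BCL2L1, BAX, BAK1, BCL2L11, PMAIP1, BBC3, BID and BAD). The BAX window held CACGTG 4 times, as did at least 1 window of 5 of 27305 genes (0.0183%), BAX included. The sites are shown with their surroundings, since BAX held the motif most often among the members searched. They are on the + strand from 5′ to 3′ with the motif in capitals. Names give the distance of the motif's first base from the annotated start used for the window. That start can differ from the gene coordinates given in the text. The BAX sites at -45 and -14 and the BID site lie inside those coordinates.
BAX -138 (chr19:48954725-48954754): tcattggacagtCACGTGacgggaccaaac
BAX -93 (chr19:48954770-48954799): ggcaggtgcggtCACGTGacccggcggcgc
BAX -45 (chr19:48954818-48954847): ttgcggggcggcCACGTGaaggacgcacgt
BAX -14 (chr19:48954849-48954878): cagcggggctctCACGTGacccgggcgcgc

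BBC3 and BID held the motif once each, shown 5′ to 3′ on the strand of the gene (-).
BBC3 -232 (chr19:47232882-47232911): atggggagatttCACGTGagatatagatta
BID -106 (chr22:17774072-17774101): ttgtgtcctctcCACGTGgcctggggattc

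CACGTG, which reads the same on both strands, was present for 3 of the 9 members with a window and for 8.77% of the 27305 genes counted. CATCTG, a form of E-box known for HAND2 and related factors, was searched on both strands (as CATCTG or CAGATG) and was present for 0 of 9 members and for 17.5% of these genes. The general E-box CANNTG, which includes both, was present for 4 of 9 members (BAX, BBC3, BID and BAD) and 73.1% of these genes. BAX, BBC3 and BID, the genes with CACGTG, did not pass the test in siMYCN or siHAND2 against siCTR. BBC3 was near the threshold in siHAND2 (limma, adjusted p = 0.0549). A link between the motif and these values was not tested. Presence of these letters is a description of the window and is no evidence of binding.

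BAK1 (chromosome 6, 33572547 to 33580293), the effector resident on mitochondria, was the member with the fewest reads. Its lowest library held about 144, where counting error by itself is 8.34% of the value. It stood at 7.64, 7.79 and 7.92 CPM under siCTR, at 5.80, 7.02 and 6.78 under siMYCN and at 7.96, 7.69 and 6.98 under siHAND2. The siMYCN libraries were all below the siCTR libraries, and siMYCN replicate 1 was the lowest. The difference of -0.23 in siMYCN missed the threshold (limma, adjusted p = 0.0517) and passed it with the replicate number as a block (adjusted p = 0.0491). It also passed with a pseudocount of 5 (-0.15), testing only genes above 5 CPM, quantile normalization (-0.30), median-ratio rescaling (-0.28), no intensity trend, and without siMYCN replicate 2 (-0.27) or siHAND2 replicate 3. In siHAND2 the difference was -0.04 (95% interval -0.22 to 0.14), and between the knockdowns it was 0.18 (adjusted p = 0.13).

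Of the 5 BH3-only genes, BAD rose and PMAIP1 fell in siMYCN, and BCL2L11 rose in siHAND2. BAD (chromosome 11, 64269830 to 64284704), a sensor of growth factor signals that binds BCL2 and BCL-XL, stood at 16.3, 17.0 and 16.3 CPM under siCTR, at 23.1, 21.7 and 22.3 under siMYCN and at 16.5, 18.3 and 14.4 under siHAND2. The siMYCN libraries stood above all others, and the siHAND2 libraries overlapped siCTR. BAD rose by 0.41 in siMYCN (standard error 0.07, limma, adjusted p = 0.000492). Its difference in siHAND2 was -0.02 (95% interval -0.18 to 0.14), and siHAND2 lay below siMYCN by a tested difference of -0.43 (adjusted p = 0.000385). BAD shares 14643 bases with GPR137, a gene on the opposite strand, whose reads cannot be told apart from those of BAD if strand was not used. GPR137 averaged 11.7 ± 0.26 CPM under siCTR, 13.7 ± 0.84 under siMYCN and 11.2 ± 0.75 under siHAND2 (SD, n = 3) and rose by 0.21 in siMYCN (adjusted p = 0.0384), a call lost under 3 other settings, among them median-ratio rescaling (0.15), and without siCTR replicate 1 (0.19), 2 (0.22) or 3 (0.21) or siMYCN replicate 1 (0.17) or 3 (0.20). Its part in the BAD value was not tested.

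PMAIP1 (chromosome 18, 59899996 to 59904305) encodes NOXA, which binds MCL1 and promotes its degradation. It stood at 75.8, 74.2 and 75.2 CPM under siCTR, at 58.0, 64.0 and 64.7 under siMYCN and at 77.2, 76.3 and 86.1 under siHAND2. The siMYCN libraries were below, and the siHAND2 libraries above, every siCTR library. PMAIP1 fell by 0.27 on the log2 scale in siMYCN (standard error 0.05, limma, adjusted p = 0.00119). The siHAND2 difference of 0.09 (95% interval -0.03 to 0.20, adjusted p = 0.25) did not pass the test. Between the knockdowns PMAIP1 was 0.36 higher in siHAND2 (standard error 0.05, adjusted p = 0.000116).

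BCL2L11 (chromosome 2, 111119378 to 111168445) encodes BIM, which binds all anti-apoptotic members. It stood at 23.4, 23.1 and 21.8 CPM under siCTR, at 23.0, 22.9 and 24.0 under siMYCN and at 27.9, 27.5 and 26.3 under siHAND2. The siHAND2 libraries stood above the 6 others, which overlapped. BCL2L11 rose by 0.25 in siHAND2 (standard error 0.06, limma, adjusted p = 0.00326) and was 0.22 higher there than in siMYCN (adjusted p = 0.0092). The siMYCN difference was 0.03 (95% interval -0.09 to 0.15) and turned to -0.02 with median-ratio rescaling and -0.04 with quantile normalization. BCL2L11 lies wholly inside the long noncoding gene MIR4435-2HG on the opposite strand, which measured under 1 CPM in each group mean (0.78 in siCTR, 0.70 in siMYCN and 0.81 in siHAND2).

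BBC3 (chromosome 19, 47220822 to 47232766) encodes PUMA, which binds all anti-apoptotic members. It stood at 9.93, 10.6 and 9.92 CPM under siCTR, at 10.3, 9.51 and 9.80 under siMYCN and at 12.5, 12.1 and 10.8 under siHAND2. The siHAND2 libraries lay above all siCTR and siMYCN libraries, with replicate 3 closest to them. The siHAND2 difference of 0.20 missed the threshold (limma, adjusted p = 0.0549). It passed with the replicate number as a block (adjusted p = 0.0479), with a filter of 5 CPM or no intensity trend, and without siHAND2 replicate 3 (0.26). BBC3 was 0.24 higher in siHAND2 than in siMYCN (adjusted p = 0.0278), a call lost with no filter on low values and without siMYCN replicate 2 (0.21) or 3 (0.23) or siHAND2 replicate 1 (0.20) or 2 (0.22). In siMYCN the difference from siCTR was -0.04 (95% interval -0.20 to 0.12).

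BID (chromosome 22, 17734138 to 17774770), which links death receptors to mitochondria once cut by caspase-8, stood at 44.2, 46.2 and 45.0 CPM under siCTR, at 41.8, 44.5 and 38.6 under siMYCN and at 50.7, 45.2 and 42.2 under siHAND2. All 3 groups overlapped. The differences were -0.12 in siMYCN (95% interval -0.25 to 0.02, limma, adjusted p = 0.187) and 0.02 in siHAND2 (95% interval -0.12 to 0.16, adjusted p = 0.818). The difference between the knockdowns was 0.14 (adjusted p = 0.131) and passed the test without siHAND2 replicate 3 (0.20, adjusted p = 0.029).

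**Figure D2:**
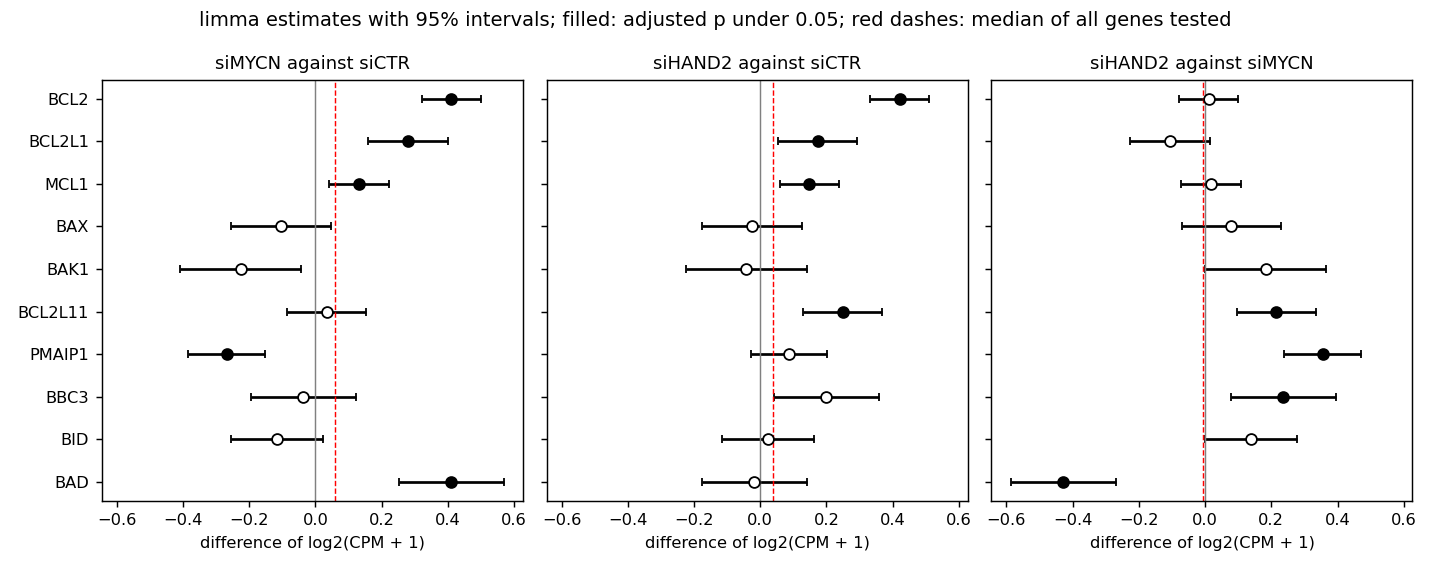
Difference of log2(CPM + 1) (x axis) for each member (y axis) in the 3 contrasts, with 95% intervals, filled where the adjusted p is under 0.05, and a dashed line at the median of all genes tested. The anti-apoptotic genes are filled in both contrasts against siCTR and none of them is filled between the knockdowns, where 4 of the 5 BH3-only genes are.

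Counted over the family, 5 of 10 members passed the test in siMYCN against siCTR, beside 35.9% of the 14495 genes tested. BCL2, BCL2L1, MCL1 and BAD were higher, beside 24.5% of all genes, and PMAIP1 was lower, beside 11.4%. In siHAND2 against siCTR 4 members passed, beside 29.9% of genes tested. BCL2, BCL2L1, MCL1 and BCL2L11 were higher, beside 18.1%, and 0 were lower, beside 11.8%. At an unadjusted p under 0.05 the members that passed numbered 5 and none of them was lower. No share of all genes was computed at that threshold. Without siCTR replicate 2 the siHAND2 count was 2, beside 21.2% of all genes. It was also 2 with median-ratio rescaling, beside 29.3%, where BCL2 and BCL2L11 were the members called. Between the knockdowns 4 members passed, beside 26.9%. BCL2L11, PMAIP1 and BBC3 were higher in siHAND2, beside 11.4%, and BAD was lower, beside 15.5%. Without siHAND2 replicate 3 the count between the knockdowns was 6, beside 24.6% of all genes. Of all genes called in siMYCN 68.3% were higher, against 51.2% with median-ratio rescaling and 49.4% with quantile normalization. In siHAND2 these shares were 60.6%, 47.1% and 47.9%. Among the members, BCL2, BCL2L1 and BAD stayed called as higher, and PMAIP1 as lower, in siMYCN under both.

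The groups' libraries did not overlap for 7 of 10 members in siMYCN against siCTR, beside 49.5% of genes tested, for 6 in siHAND2 against siCTR, beside 42.4%, and for 4 between the knockdowns, beside 38.7%. The median difference over the 10 members was -0.001 in siMYCN, beside 0.06 over all genes. It was 0.12 in siHAND2, beside 0.04, and 0.11 between the knockdowns, beside -0.01. By role, all 3 anti-apoptotic members rose in siMYCN, beside 24.5% of all genes, and in siHAND2, beside 18.1%. With median-ratio rescaling 2 of the 3 remained called in siMYCN (BCL2 and BCL2L1), where 32.9% of all genes were called. In siHAND2 1 remained called (BCL2), where 29.3% of all genes were. Between the knockdowns 0 of the 3 differed (limma), beside 26.9%. At an unadjusted p under 0.05, a threshold with no share of all genes computed, 0 differed as well. BCL2L2, a further anti-apoptotic gene outside the 10 members, was named after its values were seen. It did not pass in siMYCN (0.22, limma, adjusted p = 0.0521) or siHAND2 (0.002, adjusted p = 0.99). Its difference between the knockdowns was -0.22 (adjusted p = 0.0672). Of the 5 BH3-only genes, 2 passed in siMYCN, beside 35.9%, 1 in siHAND2, beside 29.9%, and 4 between the knockdowns, beside 26.9%.

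**Figure D3:**
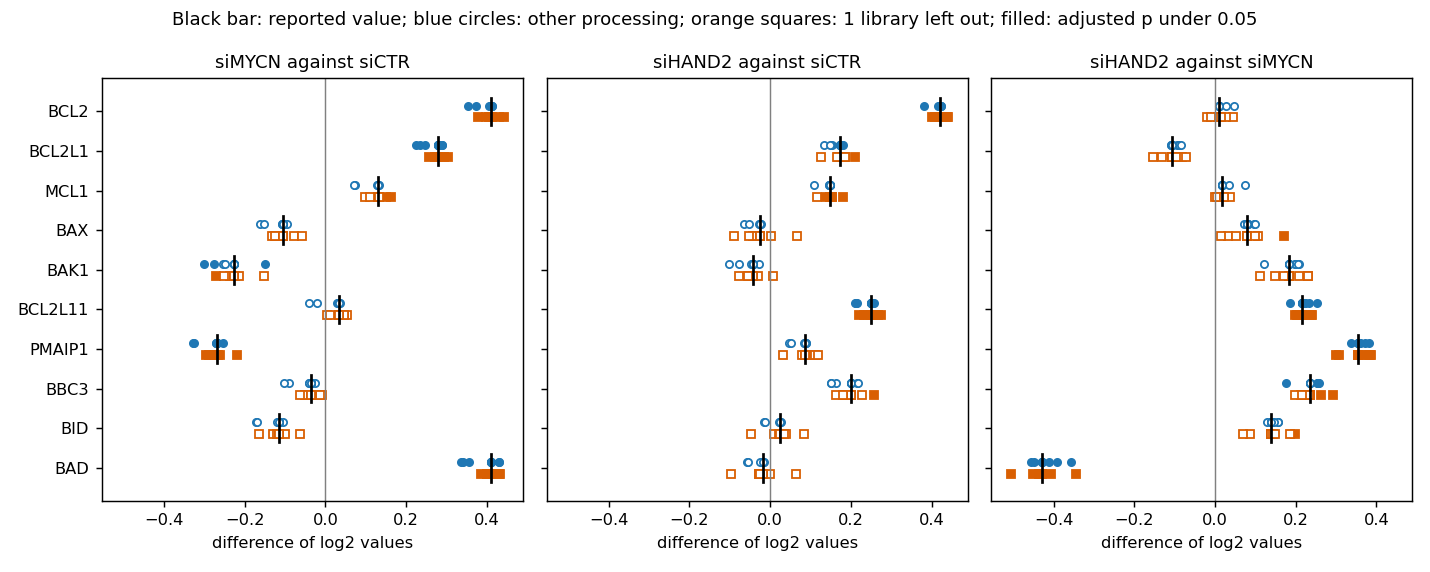
Difference of log2 values (x axis) of each member (y axis) in the 3 contrasts: the reported value (black bar), 10 other processing settings (circles) and 9 fits that left out 1 library (squares), filled where the adjusted p is under 0.05. BCL2 in both knockdowns, BCL2L1, PMAIP1 and BAD in siMYCN and BCL2L11 in siHAND2 are filled throughout, whereas MCL1 in both knockdowns and BCL2L1 in siHAND2 are filled in part.

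Ratios of 2 genes within a library do not depend on how libraries are scaled, and 3 were compared between the groups in 9 comparisons with exact two-sided permutation tests on the log2 ratio. With 3 libraries against 3 an exact permutation test cannot go below p = 0.1, so none can pass 0.05. The ratio of BCL2 to BAX, the classical balance of a guard and an effector, came to 7.61, 6.94 and 7.50 under siCTR, to 10.1, 10.8 and 10.7 under siMYCN and to 8.94, 9.60 and 11.7 under siHAND2. All knockdown libraries lay above siCTR, by a factor of 1.43 in siMYCN and 1.36 in siHAND2 (exact permutation p = 0.1 and adjusted p = 0.129 for each). The knockdowns overlapped each other (exact permutation p = 0.6). CPM ratios are not ratios of molecules, since the transcripts differ in length.

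The ratio of MCL1 to PMAIP1, a guard and the BH3-only gene whose product binds it, came to 2.38, 2.22 and 2.30 under siCTR, to 3.36, 2.88 and 2.92 under siMYCN and to 2.52, 2.49 and 2.21 under siHAND2. The siMYCN libraries stood above the 6 others, by a factor of 1.32 over siCTR (exact permutation p = 0.1, adjusted p = 0.129). The siHAND2 and siCTR libraries overlapped (exact permutation p = 0.4, adjusted p = 0.45).

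The ratio of BCL2 to BCL2L11, whose products bind each other, came to 12.8, 12.4 and 13.3 under siCTR, to 16.8, 16.2 and 16.9 under siMYCN and to 13.7, 14.1 and 15.3 under siHAND2. The 3 groups were separate, with siCTR lowest and siMYCN highest. The factor over siCTR was 1.30 in siMYCN and 1.12 in siHAND2, and siHAND2 was lower than siMYCN by a factor of 0.863 (exact permutation p = 0.1 and adjusted p = 0.129 for each of the 3 comparisons).

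**Figure D4:**
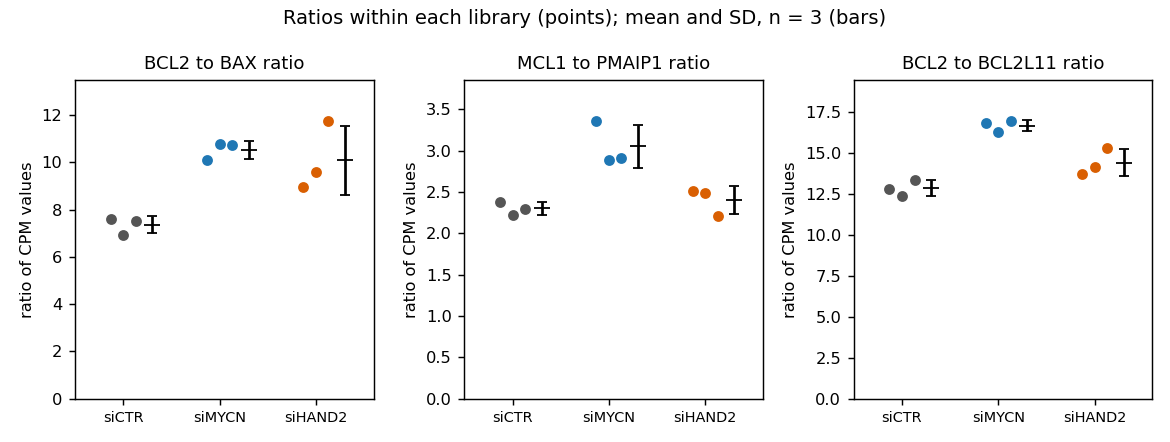
Ratio of the CPM of 2 genes (y axis, from 0) in each of the 9 libraries, grouped by siRNA (x axis), with the mean and SD of 3 libraries beside the points. All siMYCN points lie above all siCTR points in the 3 panels, and the siHAND2 points of MCL1 to PMAIP1 overlap those of siCTR.

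Beyond the 10 members, 39 further genes of the mitochondrial apoptosis pathway were listed, of which 36 were in the table and 27 passed the filter. In siMYCN 9 of the 27 passed the test (33.3%, beside 35.9% of all genes), 5 higher and 4 lower. Without siMYCN replicate 3 the count was 5, beside 28.6% of all genes. In siHAND2 16 of the 27 passed (59.3%, beside 29.9%), 7 higher and 9 lower. Between the knockdowns 7 of 27 passed (25.9%, beside 26.9%). The median difference was 0.01 in siMYCN and 0.00 in siHAND2, beside 0.06 and 0.04 over all genes, and no test was made of the list as a whole.

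Of the 27 pathway genes tested the largest difference belonged to BMF, a BH3-only gene outside the 10 members whose product is held at the cytoskeleton until stress frees it. BMF stood at 7.61, 7.86 and 7.97 CPM under siCTR, at 8.82, 9.62 and 9.90 under siMYCN and at 25.8, 23.9 and 22.7 under siHAND2. The siHAND2 libraries lay far above the others, and BMF rose by 1.51 there (standard error 0.07, limma, adjusted p = 2.35e-10). It was 1.26 higher in siHAND2 than in siMYCN (adjusted p = 9.9e-10). The rise of 0.24 in siMYCN (adjusted p = 0.015) was lost with median-ratio rescaling (0.19), quantile normalization (0.17) and without siCTR replicate 1 (0.23) or siMYCN replicate 3 (0.21).

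BNIP3, a BH3-like gene known for hypoxia response and mitophagy, fell in both knockdowns. It stood at 202, 199 and 193 CPM under siCTR, at 119, 129 and 117 under siMYCN and at 122, 125 and 145 under siHAND2, with every knockdown library below siCTR. The differences were -0.70 in siMYCN (standard error 0.06, limma, adjusted p = 2.18e-07), and the siHAND2 value was -0.60 (adjusted p = 7.33e-07). Of the other BCL2-related genes, BCL2L12, BCL2L14, BCL2L15, BOK, BIK and HRK were in the table and below the filter. Their group means were all under 1 CPM. They were not tested. Of 13 BCL2-related genes listed, 11 were in the table, and BCL2A1 and BCL2L10 were not analysed here.

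The counts by group stand beside 35.9% of all genes called in siMYCN and 29.9% in siHAND2. Among 11 tested genes of the apoptosome and caspase group (18.2% called in siMYCN and 45.5% in siHAND2), 1 rose and 1 fell in siMYCN, and 2 rose and 3 fell in siHAND2. CASP8, whose loss in neuroblastoma lines is well known, named after its values were seen, was below the filter, with no library above 0.398 CPM. Of 5 tested inhibitors of apoptosis (40% and 60% called), 1 rose and 1 fell in siMYCN and 3 rose in siHAND2. XIAP, which blocks caspases directly, rose from 64.4 ± 2.00 to 79.0 ± 2.00 CPM in siMYCN (0.29, limma, adjusted p = 0.000181) and to 74.5 ± 3.54 CPM in siHAND2 (0.21, adjusted p = 0.00361); it too was named after its values were seen. Of 6 partners in or near the outer mitochondrial membrane (50% and 83.3% called), 2 rose and 1 fell in siMYCN, and 1 rose and 4 fell in siHAND2.

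**Figure D5:**
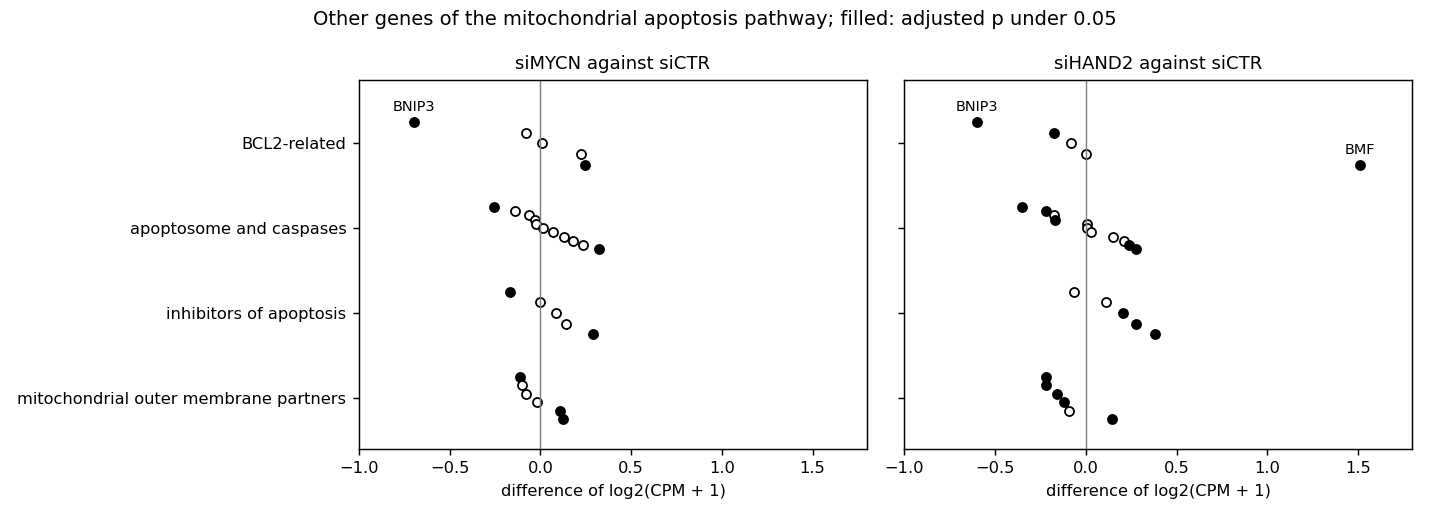
Difference of log2(CPM + 1) (x axis) of the 27 tested pathway genes outside the 10 members, by group (y axis), in the 2 contrasts against siCTR, filled where the adjusted p is under 0.05. BMF at 1.51 in siHAND2 and BNIP3 at -0.70 and -0.60 lie apart from the other genes, which lie between -0.5 and 0.5.

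Regulators of the members, together with genes that act beside those regulators in stress responses, were listed separately, 17 genes of which 15 were tested. In siMYCN 6 of the 15 passed the test (40%, beside 35.9% of all genes), 5 higher and 1 lower. In siHAND2 4 passed (26.7%, beside 29.9%), all higher. Both shares were near those of all genes. Between the knockdowns 7 passed (46.7%, beside 26.9%), 4 higher and 3 lower in siHAND2. MYC, the paralogue of MYCN, rose from 0.54 ± 0.15 CPM in siCTR to 1.89 ± 0.35 in siMYCN (0.90, limma, adjusted p = 9.14e-05). Its siHAND2 level was 4.71 ± 0.84 CPM (a rise of 1.88, adjusted p = 3.11e-08). At such low levels the size depends on the scale, and the MYC difference ranged over the alternatives that tested it from 0.31 to 1.78 in siMYCN and from 0.80 to 3.08 in siHAND2, past the threshold in each. JUN, a part of AP-1, averaged 44.5 ± 1.91 CPM under siCTR, 50.1 ± 2.19 under siMYCN and 66.3 ± 7.64 under siHAND2. It rose in siHAND2 (0.56, adjusted p = 1.06e-05), while its difference of 0.17 in siMYCN missed the threshold (adjusted p = 0.0668) and passed it with the replicate number as a block (adjusted p = 0.0136), in a fit of siCTR and siMYCN alone, and without siHAND2 replicate 1 or 3.

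Of 5 genes that control the stability of MCL1 protein, 2 rose in siMYCN, beside 24.5% of all genes, and 3 rose in siHAND2, beside 18.1%. Between the knockdowns 0 of the 5 differed (limma), beside 26.9%. At an unadjusted p under 0.05, with no share of all genes computed, 0 differed as well. Counts out of 5 genes are too small to be read against these shares.

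Of 7 tested fibroblast markers 6 rose in siMYCN (limma, adjusted p under the threshold), beside 24.5% of all genes. In siHAND2 6 rose, beside 18.1%, and 1 (THY1) fell, beside 11.8%. Against siMYCN, 5 were higher in siHAND2, beside 11.4%, and 1 (THY1) was lower, beside 15.5%. Of the 8 listed, 6 were at or above 1 CPM in siCTR and 7 in each knockdown, and their summed level was 288 to 292 CPM in siCTR, 347 to 349.5 in siMYCN and 621 to 703 in siHAND2. From siCTR to siHAND2 the mean of COL1A2 went from 1.66 ± 0.14 to 15.9 ± 2.10 CPM, of LUM from 9.15 ± 0.14 to 54.7 ± 4.4, of DCN from 0.43 ± 0.08 to 11.02 ± 0.78 and of PDGFRA from 121 ± 4.49 to 341 ± 27.7 (SD, n = 3). COL1A1 was under 1 CPM in all 9 libraries. Of the 12 neuroblast markers, 11 rose in siMYCN, beside 24.5% of all genes. In siHAND2 5 (STMN2, STMN4, GAP43, SYT1 and L1CAM) rose, beside 18.1%, and 3 (TH, DDC and PRPH) fell, beside 11.8%. Against siMYCN, 2 were higher in siHAND2, beside 11.4%, and 8 were lower, beside 15.5%. The fibroblast and neuroblast markers named here were named after their values were seen. The neuroblast list summed to 2635 to 2810 CPM in siCTR, 3392 to 3508 in siMYCN and 2892 to 3073 in siHAND2. The part of either list in the values of the BCL2 family was not tested.

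BCL2 in siHAND2 had the largest absolute difference from siCTR of any member that passed the test. The 3 genes whose log2(CPM + 1) followed BCL2 most closely over the 9 libraries, among genes that averaged 5 CPM or more, were ARHGAP26 (Pearson r = 0.994), ATRNL1 (0.994) and MSRB2 (0.99). ARHGAP26 averaged 58.3 ± 3.89 CPM under siCTR, 98.0 ± 4.11 under siMYCN and 100.0 ± 1.82 under siHAND2 (SD, n = 3). These 9 libraries fall into 3 groups and share one scaling, so the coefficients describe a likeness of group levels.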

How the data were processed

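RNA sequencing of 9 LAN5 libraries was deposited by the authors as 1 table of CPM, in which a constant of 0.0001 is part of every value. Reads were aligned with STAR 2.5.1, and Partek was used, per the submitters' processing notes; the counting rule, the use of strand and the annotation are not given in the sources used here. Those notes name hg19 and GRCh37, but 91.4% of 18215 matched genes began within 5000 bp of their GRCh38 start and 5.62% of 18635 within 5000 bp of their GRCh37 start, so coordinates are given as GRCh38, counted from 1, with the end 1 base before the table's stop. Of values up to 20 steps of the CPM scale, 79.5% to 80.9% were whole reads within 0.02 of a step, under the 95% needed for a count model, so none was run.

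Tests used limma 3.58.1 in R 4.3.3 on log2(CPM + 1) with an intensity trend, on the 14495 genes that reached 1 CPM in 3 or more libraries (10589 left out), in 1 fit of all 9 libraries. Two-sided p-values were Benjamini-Hochberg adjusted across these genes in each contrast, with a threshold of 0.05. A fold change on this scale understates the change of low genes. The model was tested on simulated data, where small changes were mostly missed. Far fewer genes were changed there than were called here, so that rate does not carry over to these data. A gene that did not pass the test is not thereby shown to be unchanged. Alternatives were pseudocounts of 0.1 and 5, no filter, a 5 CPM filter, quantile normalization, median-ratio rescaling, fits of 2 groups only, no trend, precision weights from the recovered depth, replicate number as a block, and each library left out.

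Libraries with the same replicate number deviated together between siCTR and siMYCN (correlations of 0.102 to 0.216 over the 3 pairs) and between siCTR and siHAND2 (0.121 to 0.266). Between siMYCN and siHAND2 the correlations were 0.434, -0.129 and 0.245. Over all groups 8 of the 9 same-number pairs were over 0.1, and 6 of the 9 libraries correlated best with one of their own number. Some pairs of unlike number were also positive, up to 0.219 (siMYCN replicate 2 and siHAND2 replicate 3). These values do not settle whether the numbers pair the libraries. The labels give no shared origin for a number.

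The members and lists were chosen with earlier results of these data known. All 10 members are named. Of the pathway and regulator lists a gene is named if it passed the test in a contrast against siCTR with an absolute difference of at least 0.5, or if it is BCL2-related and below the filter. Other genes are stated to have been named after their values were seen. Values of some single genes of these lists are not reported here. Canonical transcript lengths came from GENCODE (GRCh37 annotation), by symbol.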

Additional observations from a re-analysis of the deposited data

How the results depend on the processing

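Of 570 values of the 10 members under alternatives (30 results, each under 10 other settings and 9 fits that left out 1 library), 521 kept their direction and their side of the threshold, 22 lost the call, 14 gained it and 13 changed sign. Of the 13, 0 concerned a value past the threshold. BCL2L11 in siMYCN became -0.022 with median-ratio rescaling and -0.040 with quantile normalization, and BID in siHAND2 became -0.016 and -0.012. When 1 library was left out, the siHAND2 difference from siCTR ranged from -0.090 to 0.066 for BAX, from -0.077 to 0.0063 for BAK1, from -0.046 to 0.083 for BID and from -0.096 to 0.065 for BAD. Between the knockdowns it ranged from -0.020 to 0.044 for BCL2, from -0.0011 to 0.038 for MCL1 and from -0.184 to 0.012 for the BCL2 to BAX ratio (log2). The number of members called in siHAND2 was 2 with median-ratio rescaling and 2 to 5 with 1 library left out, against 4. The share of all genes called there was 29.3% with median-ratio rescaling and 21.2% to 29.9% with 1 library left out, against 29.9%. The number of pathway genes called in siMYCN was 5 to 13 with 1 library left out, against 9. Of all genes, 27.7% to 40.3% were called in these fits, against 35.9%. With the replicate number as a block, 6 members were called in siMYCN, beside 40.7% of all genes, with BAK1 added (adjusted p = 0.0491, limma). In siHAND2 5 were called, beside 35.1%, with BBC3 added (adjusted p = 0.0479, limma). The block changed no other member's call. The cause of these changes was not tested. Isoforms, protein levels and cell death were not measured here.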
